A study of Homo sapiens with 6 samples.

Results

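The MARCH ligases are a family of E3 ubiquitin ligases, and their genes were examined in HCC827 cells treated with an inhibitor of EGFR. HCC827 is a human lung adenocarcinoma line whose EGFR gene has an activating deletion, and erlotinib is a small molecule that occupies the ATP site of the EGFR kinase. Cells were given the vehicle DMSO (3 libraries) or 1 μM erlotinib (3 libraries) for 24 h before mRNA-sequencing, and all libraries came from this single line. The members were the 9 rows of the deposited table, of 28395 in all, whose Entrez identifiers are those of MARCH1 to MARCH9, named MARCHF1 to MARCHF9 in current annotation. The table was read as signal, that is the reads of a gene divided by 1 size factor per library, with 20760204 to 24641819 reads on genes per library. The labels do not state whether the libraries of a condition came from separate cultures, so the p-values measure the spread between these libraries, which may be technical. Since RNA was taken from whole cultures, a lower RNA amount per cell and fewer cells with the RNA cannot be told apart.

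The members carry a RING-CH domain, a zinc-binding fold that brings a ubiquitin-loaded E2 enzyme to a substrate, and most of them are anchored in a membrane. Ubiquitin placed on the cytosolic tail of a surface receptor sends that receptor to endosomes and lysosomes, and the family is best known for taking MHC molecules, costimulatory proteins and the transferrin receptor off the cell surface. MARCH1 with MARCH8, MARCH2 with MARCH3, and MARCH4 with MARCH9 are the closest relatives by sequence. MARCH5 lies in the outer mitochondrial membrane and MARCH6 in the endoplasmic reticulum, where each acts on proteins of its own compartment.

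The promoters of 3 members are shown because these genes gave the largest fall (MARCH4), the largest rise (MARCH3) and, in the closest relative of MARCH4, a change in the opposite direction (MARCH9). Each window runs from 250 bases before to 50 bases after the transcript start, is written 5′ to 3′ on the strand of the gene, and was taken from RefSeq (GRCh38.p14). Capitals mark matches on either strand to GGGCGG (GC box) or CCGGAA (ETS).
MARCH4, chr2:216372434-216372733, minus strand: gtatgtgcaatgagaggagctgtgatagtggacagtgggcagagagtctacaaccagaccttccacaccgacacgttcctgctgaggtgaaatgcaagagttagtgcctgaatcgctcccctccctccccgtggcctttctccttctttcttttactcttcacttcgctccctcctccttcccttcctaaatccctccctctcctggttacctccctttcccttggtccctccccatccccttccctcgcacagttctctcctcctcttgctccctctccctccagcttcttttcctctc
MARCH3, chr5:127030509-127030808, minus strand: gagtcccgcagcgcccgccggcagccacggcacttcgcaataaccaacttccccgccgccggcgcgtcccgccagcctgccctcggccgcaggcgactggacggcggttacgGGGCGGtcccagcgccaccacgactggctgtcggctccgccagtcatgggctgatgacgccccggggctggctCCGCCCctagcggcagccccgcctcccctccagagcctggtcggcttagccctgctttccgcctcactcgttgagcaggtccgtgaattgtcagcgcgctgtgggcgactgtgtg
MARCH9, chr12:57754853-57755152, plus strand: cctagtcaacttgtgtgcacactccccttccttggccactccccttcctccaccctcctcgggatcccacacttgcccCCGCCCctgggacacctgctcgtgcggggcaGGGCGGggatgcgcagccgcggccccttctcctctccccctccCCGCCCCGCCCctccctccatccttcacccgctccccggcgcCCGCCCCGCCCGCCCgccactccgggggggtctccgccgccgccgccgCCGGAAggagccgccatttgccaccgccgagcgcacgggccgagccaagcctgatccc
Also searched on both strands, without a match in these windows, were the AP-1 letters TGANTCA, the FOXO letters GTAAACA, the cAMP response element TGACGTCA, the E-box CACGTG, the TEAD letters GGAATG and the core promoter element TATAAA, which occur in 7.73%, 3.42%, 1.84%, 7.21%, 14.0% and 11.6% of all promoters. The MARCH4 window held 0 matches of any of the 8 motifs and 6 CpG dinucleotides, against a median of 14 over 34796 promoters of the same length. The MARCH3 and MARCH9 windows held 35 and 30 CpG dinucleotides. The GC box occurs in 44.9% and the ETS letters in 17.2% of all promoters; of the 7 GC boxes in the MARCH9 window some overlap. GTAAACA was found in 1 window each of MARCH1 and MARCH8.

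All 9 members were tested for a difference between erlotinib and DMSO by limma on log2(signal + 1), in a fit over the 14215 genes whose mean signal reached 10, with Benjamini-Hochberg adjustment and a threshold of 0.05. With erlotinib, MARCH1, MARCH2, MARCH3, MARCH6 and MARCH9 rose, MARCH4 and MARCH7 fell, and MARCH5 and MARCH8 passed the threshold in neither direction. Thus 7 of 9 members changed, in a background where 70.7% of all tested genes did, and a share of this size is no result about the family. By direction, 5 of 9 members were higher, where 35.3% of all tested genes were higher, and 2 of 9 lower, where 35.4% were lower. Scaling each library to its total count gave 43.3% higher and 27.8% lower over all genes, and 6 members higher. By at least 1 log2 unit, 3 members rose (17% of all genes) and 1 fell (10.8%). The median log2 fold change of the members was 0.34, against 0.02 over all tested genes. No library of one condition overlapped the other for 6 members that were above (36.7% of all genes) and 2 that were below (36.9%), leaving MARCH8.

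**Figure D1:**
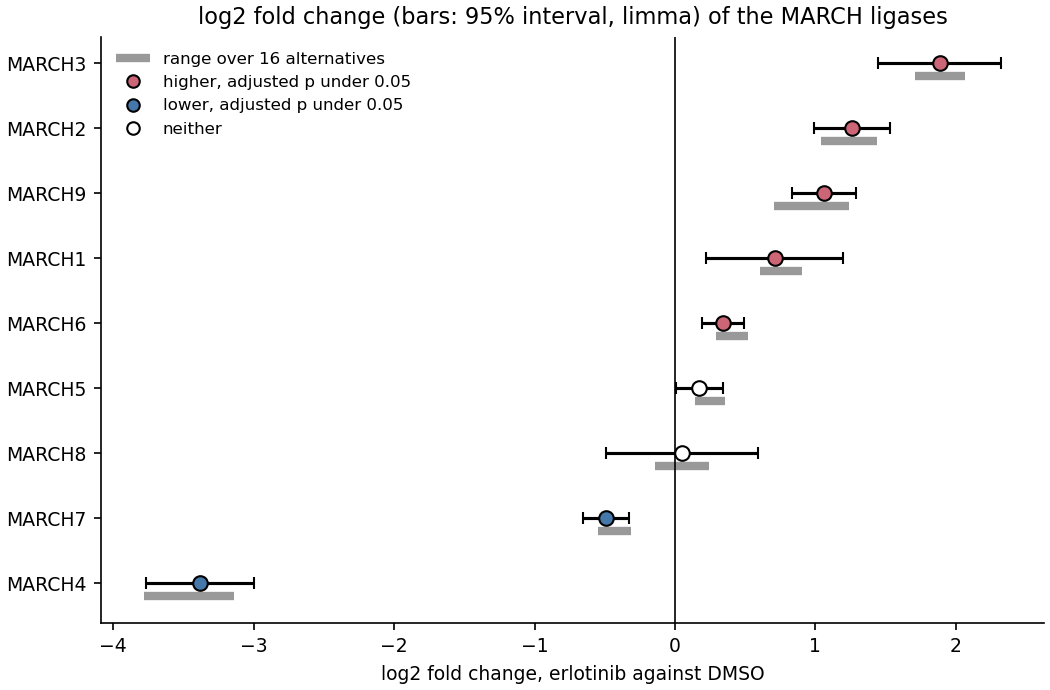
log2 fold change of each MARCH ligase with erlotinib against DMSO (x axis, log2 of signal + 1), with its 95% interval from limma as a black bar and the lowest to highest value over 16 alternative analyses as a grey bar (the matching of rows by symbol is left out). MARCH4 lies alone at -3.38, and MARCH3, MARCH2 and MARCH9 lie above 1.

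MARCH4 (Entrez gene ‘57574’, chromosome 2, 216257865 to 216372483 of GRCh38), a ligase of the Golgi apparatus known for lowering MHC class I and other surface proteins, fell most of all members. Its signal was 675, 588 and 683 in the DMSO libraries and 43.4, 80.2 and 65.5 in the erlotinib libraries, named Erlo4, Erlo5 and Erlo6 in the table. Every erlotinib library was far below every DMSO library. The means were 649 ± 52.7 and 63.0 ± 18.5 (SD, n = 3 each), a 10.3-fold fall and a log2 fold change of -3.38 ± 0.18 (SE; limma, adjusted p = 1.2e-12). In the order of all 14215 fold changes it ranked 35 from the lowest. Its erlotinib libraries rested on 47, 81 and 70 reads and varied most for their mean of all members in that condition (coefficient of variation 29.4%). An antisense RNA, MARCHF4-AS1, overlaps the gene and has no row in the table, and the strand that was counted is not given in the sources used here.
MARCH9 (Entrez gene ‘92979’, chromosome 12, 57755103 to 57760411), which sits in the Golgi and endosomes and also acts on MHC class I and ICAM1, moved the other way. Its signal was 1023, 702 and 1014 in DMSO and 1891, 1827 and 1912 with erlotinib. The DMSO library 2 was the lowest, and the erlotinib libraries lay close together, all above DMSO. The means were 913 ± 183 and 1877 ± 44.1 (SD, n = 3 each), for a log2 fold change of 1.06 ± 0.11 (SE; limma, adjusted p = 3e-08). When GC and transcript length trends were removed library by library it was 0.70, and the median over all genes was then -0.10. The log2 ratio of MARCH4 to MARCH9 within a library was -0.60, -0.26 and -0.57 in DMSO and -5.41, -4.49 and -4.85 with erlotinib. MARCH4 was below MARCH9 in every library, narrowly in DMSO and far below it with erlotinib, a difference of -4.44 (exact permutation test, two-sided, p = 0.1, the smallest that 3 against 3 libraries allow; 0.15 adjusted over the 3 pairs compared).

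MARCH2 and MARCH3, relatives found on endosomes where they bind the syntaxin STX6, both rose. MARCH3 (Entrez gene ‘115123’, chromosome 5, 126867714 to 127030558) had a signal of 52.2, 48.3 and 40.7 in DMSO and 182, 153 and 194 with erlotinib. The groups were well separated although the gene was among the scarce members in DMSO, with 38 to 52 reads. Its means were 47.0 ± 5.86 and 176 ± 20.7 (SD, n = 3 each), a 3.75-fold rise and a log2 fold change of 1.88 ± 0.21 (SE; limma, adjusted p = 7.8e-08). MARCH2 (Entrez gene ‘51257’, chromosome 19, 8413305 to 8439017) had a signal of 312, 216 and 291 in DMSO and 631, 660 and 653 with erlotinib. As for MARCH9, DMSO library 2 was the lowest. The log2 fold change of MARCH2 was 1.26 ± 0.13 (SE; limma, adjusted p = 2.3e-08), from 273 ± 50.3 to 648 ± 15.2 (SD, n = 3 each). The log2 ratio of MARCH2 to MARCH3 fell by 0.62 with erlotinib, with no overlap between the libraries (exact permutation test, two-sided, p = 0.1; 0.15 adjusted).

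MARCH1 and MARCH8 are the members that remove MHC class II and CD86 from antigen-presenting cells, and both were scarce in these epithelial cells. MARCH1 (Entrez gene ‘55016’, chromosome 4, 163524298 to 164384019) had a signal of 53.3, 52.0 and 79.2 in DMSO and 108, 103 and 88.0 with erlotinib. DMSO library 3 came nearest to the erlotinib libraries, and the groups did not overlap. Its log2 fold change was 0.71 ± 0.23 (SE; limma, adjusted p = 0.0106) and did not pass a threshold of 0.01. Only 47 to 117 reads per library stood behind these values.
MARCH8 (Entrez gene ‘220972’, chromosome 10, 45454585 to 45594907) had a signal of 82.8, 64.1 and 48.2 in DMSO and 74.7, 70.3 and 54.3 with erlotinib. The libraries of both conditions were interleaved. Its log2 fold change was 0.05, with a 95% interval of -0.49 to 0.59 (adjusted p = 0.867, limma). A rise or a fall within this interval would be compatible with these libraries, which held 45 to 81 reads of the gene. The level of MARCH8 is uncertain, because 93.1% of its longest transcript is also found, at an identity of 100%, on an alternate contig of GRCh38, and a read that maps to both places is not unique. Of the other members, 0 had such a copy. In the gene lists described further on, HLA-B, HLA-C, HLA-DRA, RNF5 and DERL3 also have such copies and were listed at 0 in every library. Whether the authors' reference held the alternate contigs is not given in the sources used here. The log2 ratio of MARCH1 to MARCH8 overlapped between the conditions (difference 0.66, exact permutation test, two-sided, p = 0.4; also 0.4 adjusted).

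**Figure D2:**
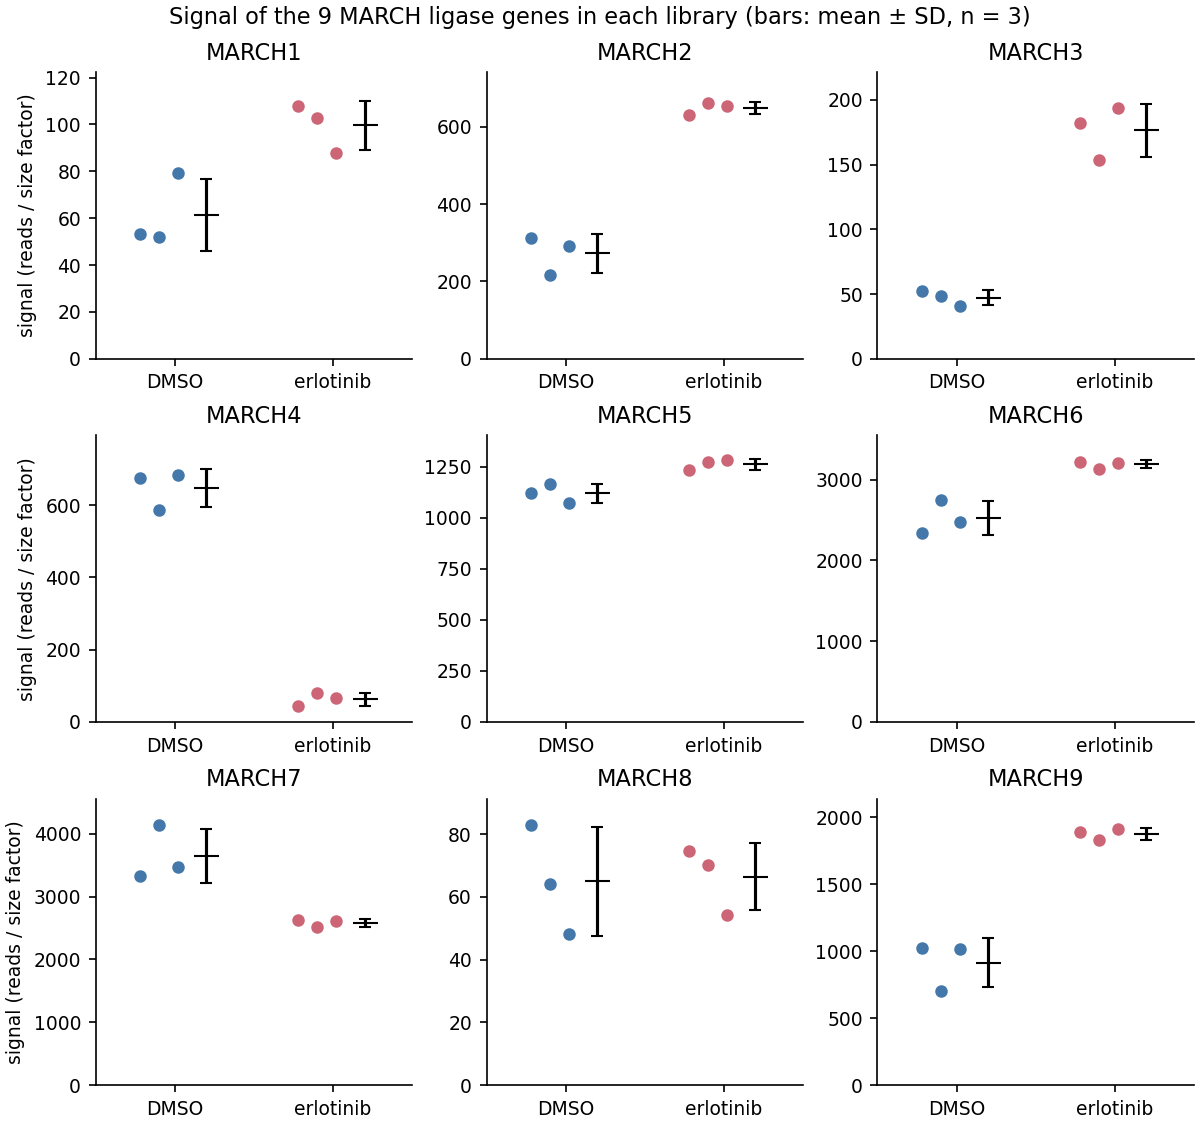
Signal (y axis, reads divided by the size factor, from 0) of each MARCH ligase in the 3 DMSO libraries (blue) and the 3 erlotinib libraries (red), with the mean and SD as black bars. MARCH8 alone overlaps between the conditions. DMSO library 2, the middle blue point, is the lowest blue point for MARCH1, MARCH2, MARCH4 and MARCH9. It is the highest blue point for MARCH5, MARCH6 and MARCH7.

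MARCH5, MARCH6 and MARCH7 were the members with the most reads beside MARCH9, and their changes were small. MARCH7 (Entrez gene ‘64844’, chromosome 2, 159712506 to 159771027), also called axotrophin, had a signal of 3331, 4141 and 3469 in DMSO and 2636, 2516 and 2608 with erlotinib. All erlotinib libraries were below DMSO, and DMSO library 2 was the highest. MARCH7 fell by 0.49 on the log2 scale (SE 0.08; limma, adjusted p = 1.1e-05), and by 0.31 under total-count scaling. Its 3′ end overlaps that of CD302 on the opposite strand, and 36.7% of the 31-base words of its transcripts also occur in other genes, all of those in CD302. CD302 had a mean signal of 1.72, and LY75-CD302, which overlaps it, had 0. Reads on shared sequence can go uncounted, so these values do not show that CD302 is scarce.
MARCH6 (Entrez gene ‘10299’, chromosome 5, 10353695 to 10440388), the human counterpart of yeast Doa10 and a ligase of ER-associated degradation, had a signal of 2339, 2748 and 2480 in DMSO and 3224, 3132 and 3210 with erlotinib. The rise was modest but larger than the spread between libraries. Its log2 fold change was 0.34 ± 0.07 (SE; limma, adjusted p = 0.00028) and 0.52 with scaling to the total count, which moved the median of all genes to 0.19.
MARCH5 (Entrez gene ‘54708’, chromosome 10, 92291167 to 92353964), known for ubiquitinating proteins that divide and fuse mitochondria, had a signal of 1119, 1164 and 1074 in DMSO and 1231, 1270 and 1282 with erlotinib. Every erlotinib library was above every DMSO library, by a small margin. The log2 fold change of 0.17 (95% interval 0.01 to 0.34) did not pass the threshold in limma (adjusted p = 0.0563). It did with DESeq2 (adjusted p = 0.0462), with edgeR (0.0356), with TMM factors in limma (0.0335), with scaling to the total count (0.000584), with the correction for GC content and length (0.000405) and without DMSO library 2 (0.0133).

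DMSO library 2 stood somewhat apart from the other DMSO libraries. Its median absolute log2 deviation from them, over all tested genes, was 0.19, against 0.13 to 0.14 for DMSO libraries 1 and 3 and 0.09 to 0.10 for the erlotinib libraries. GC content and transcript length accounted for 10.4% of the variance of its deviations from the mean over all libraries and for 1.05% to 3.72% in the others. Among members whose longest transcripts are rich in GC, MARCH9 (59.0%), MARCH4 (58.2%) and MARCH2 (57.0%) deviated by -0.54, -0.21 and -0.48 log2 units in it. Among those poor in GC, MARCH7 (36.4%), MARCH6 (39.9%) and MARCH5 (38.8%) deviated by 0.28, 0.19 and 0.09, but MARCH1 (37.8%) by -0.32. MARCH3 (48.4%) and MARCH8 (49.6%) deviated by 0.07 and 0.02. Without this library, 5 of the members called remained higher and 2 lower, and MARCH5 was higher as well.

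Levels were compared between genes as signal per kilobase of exon, with the union of GENCODE exons as length. In DMSO, MARCH7 was highest at 580 ± 68.9 per kilobase (SD, n = 3). It was followed by MARCH5 (242 ± 9.74), MARCH9 (228 ± 45.6) and MARCH6 (222 ± 18.3), whose libraries overlapped in this order, then by MARCH4 (132 ± 10.8) and MARCH2 (123 ± 22.7), which overlapped too. MARCH3 (9.55 ± 1.19), MARCH8 (8.65 ± 2.31) and MARCH1 (5.90 ± 1.47) were lowest, and neighbours among them overlapped. With erlotinib MARCH9 became the highest member at 469 ± 11.0 per kilobase, above MARCH7 at 411 ± 10.00, and no library of one overlapped the other. The length of MARCH7 includes sequence shared with CD302, which holds 36.7% of its 31-base words. If counting ignored the strand, reads there could have gone to neither gene. The level and share of MARCH7 may then be too low, so its order with MARCH9 under erlotinib is uncertain. MARCH2 moved from below to just above MARCH6, at 293 ± 6.86 against 281 ± 4.36, with no overlap. MARCH4, at 12.9 ± 3.78, reached the range of MARCH1 (9.56 ± 0.997) and MARCH8 (8.84 ± 1.43), below MARCH3 (35.8 ± 4.20). As a share of the summed level of all 9 genes per kilobase, MARCH4 went from 8.53% to 0.718%, MARCH7 from 37.4% to 22.9%, MARCH9 from 14.7% to 26.1% and MARCH2 from 7.95% to 16.3%. The sum itself went from 1552 ± 15.4 to 1793 ± 22.0 (SD, n = 3 each). An aligner that does not split reads at introns can lower the level of genes with many short exons, which bears on levels between genes more than on changes within one.

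**Figure D3:**
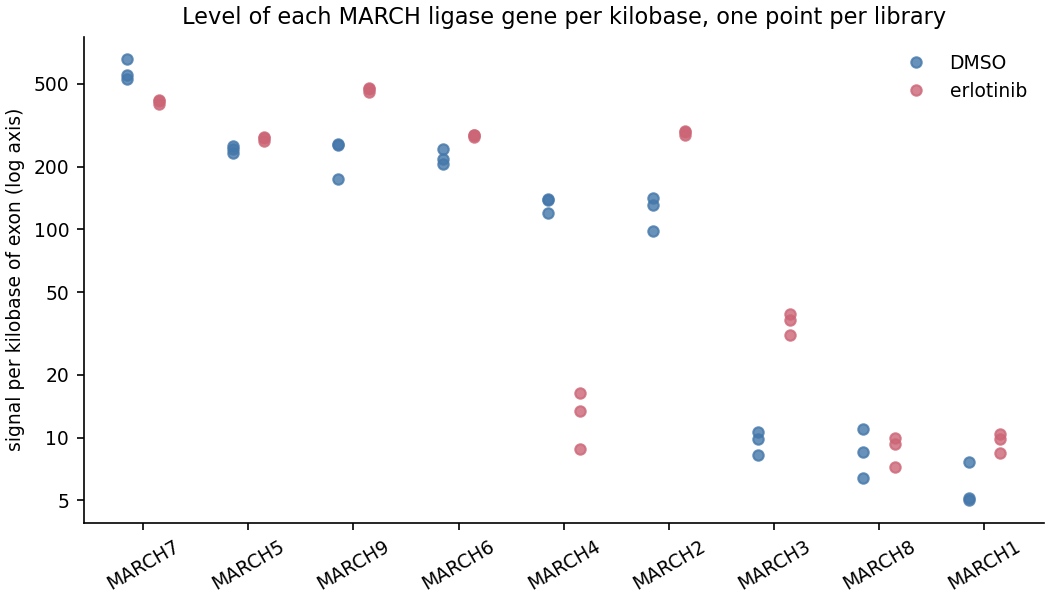
Level of each MARCH ligase as signal per kilobase of exon (y axis, log scale) in the DMSO (blue) and erlotinib (red) libraries, ordered by the DMSO mean. MARCH9 passes MARCH7 with erlotinib where the full exon length of MARCH7, part of it shared with CD302, is used. MARCH4 drops from 132 to 12.9 per kilobase.

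The genes whose log2(signal + 1) followed MARCH4 most closely over the 6 libraries were PLK2, CRSP8P and DUSP4, each with a Pearson r over 0.999. DUSP4 is a phosphatase that switches off MAP kinases, and its log2 fold change was -1.64. For MARCH3 they were IFNAR2, a subunit of the type I interferon receptor, LINC01011 and LMBRD1, again with r over 0.999. Since the libraries form only a pair of groups, any gene that changed steadily had a high r. There were 381 genes with r over 0.99 for MARCH4 and 304 for MARCH3.

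Surface proteins described as substrates of MARCH ligases were measured as a list of 20 genes, including the syntaxins STX4 and STX6, of which 16 could be tested. Of these, 6 were higher and 8 lower, and their median log2 fold change was -0.11, against 35.3% and 35.4% and a median of 0.02 over all genes. The balance turned under total-count scaling, to 8 higher and 5 lower, where 43.3% and 27.8% of all genes were. TFRC, the transferrin receptor that brings iron into cells, had the lowest value. Its signal went from 27581 ± 2277 to 4769 ± 201 (SD, n = 3 each), for a log2 fold change of -2.53 ± 0.07 (SE; limma, adjusted p = 2.8e-17). It was followed by TNFRSF10A, a death receptor for TRAIL, with -1.03. The largest rises were those of CD74, the MHC class II invariant chain (2.52, adjusted p = 1.5e-04), and HLA-DRB1 (2.37, adjusted p = 6.1e-06, both limma), each from a mean signal of at most 13.4 in DMSO. Reads of HLA genes can be split between near-identical copies, so HLA values are uncertain. CD86 was below the limit for testing, with at most 4 reads in any library.

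Of 11 genes of mitochondrial dynamics and the outer membrane, the setting of MARCH5, 7 were lower and 1 higher, where 35.4% and 35.3% of all genes were, and the median log2 fold change was -0.31 against 0.02. With scaling to the total count, 5 were lower and 1 higher, where 27.8% and 43.3% of all genes were. The 7 genes lower without that scaling included the apoptosis regulators MCL1 (-0.29) and PMAIP1 (-0.48) and the ubiquitin ligase MUL1 (-0.31). Also among them were the fusion GTPases MFN2 (-0.53) and OPA1 (-0.79). DNM1L, the GTPase that constricts mitochondria, fell from 3129 ± 234 to 1464 ± 80.9 (SD, n = 3 each), for a log2 fold change of -1.09 ± 0.08 (SE; limma, adjusted p = 6.2e-11). MIEF1, which recruits it to the outer membrane, had a log2 fold change of -0.80, while its relative MIEF2 rose by 0.77 (adjusted p at most 5.4e-08, limma).

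Of 19 genes of ER-associated degradation, the pathway of MARCH6, 17 were tested, and 7 were lower, 2 higher and 8 neither, around a median log2 fold change of -0.04. The background was 35.4% lower and 35.3% higher, so the lower share was near the background. With scaling to the total count the balance turned, to 8 higher and 6 lower, where 43.3% and 27.8% of all genes were. The lower ones included UBE2G2 (-1.48), an E2 enzyme of this pathway, and UBE2G1 (-0.68). UBE2J2, an E2 enzyme that works with MARCH6, had a log2 fold change of -0.61. The higher ones were TRIM13 (0.81), a ligase of the ER membrane, and OS9 (0.99), a lectin that delivers misfolded glycoproteins, which went from 78374 ± 2581 to 156015 ± 2468 (SD, n = 3 each). TRIM13 shares 36 of the 31-base words of MARCH6. None of them had an adjusted p above 9.2e-06 in limma. Among lipid metabolism proteins described as MARCH6 substrates, SQLE (-1.74), an enzyme of cholesterol synthesis, and the lipid droplet protein PLIN2 (-0.35) were lower (limma, adjusted p of at most 0.00091).
Of 9 cytosolic E2 enzymes, 4 were lower and 3 higher, with a median of -0.13, and both counts were near the shares over all genes (35.4% and 35.3%). The lowest log2 fold changes were those of UBE2N (-1.30), which builds K63-linked chains, and UBE2K (-0.74), and the highest those of UBE2H (0.44) and UBE2L6 (0.98), an E2 for the ubiquitin-like protein ISG15. All had an adjusted p of at most 1.7e-06 in limma.

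**Figure D4:**
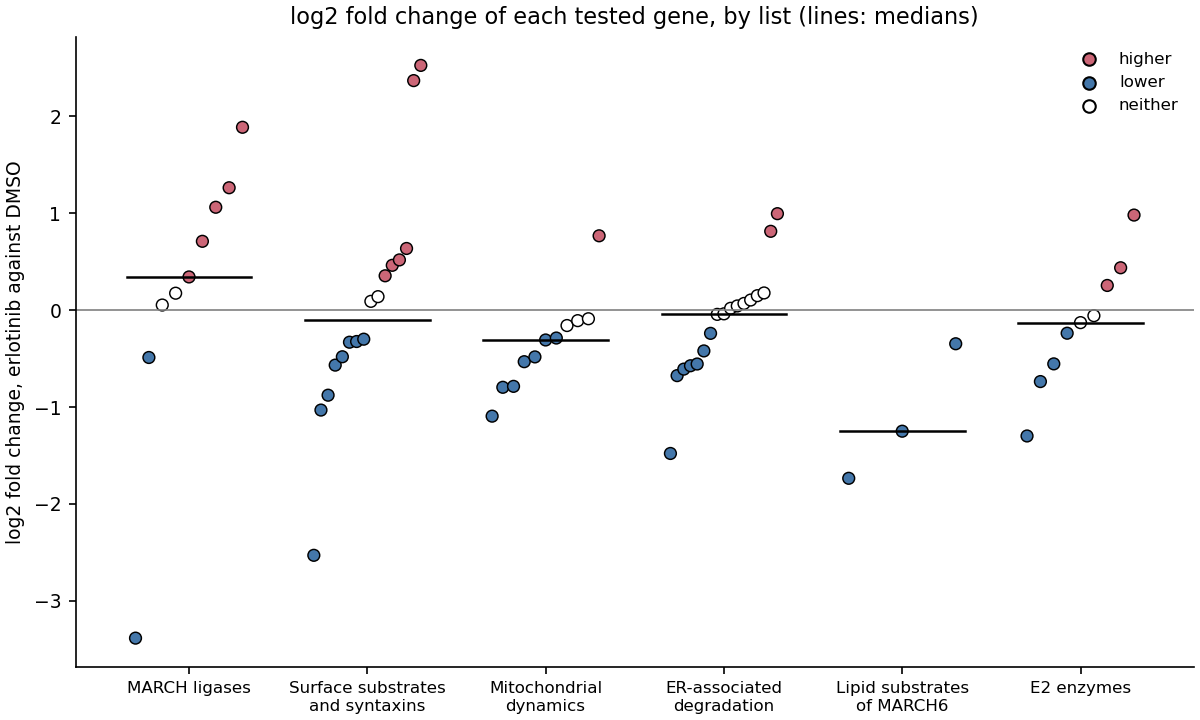
log2 fold change with erlotinib against DMSO (y axis) of each tested gene of the MARCH family and of 5 lists of partner genes, with red (higher) and blue (lower) points past an adjusted p of 0.05, open points for neither, and a line at each median. The MARCH ligases span -3.38 to 1.88, and the list of mitochondrial dynamics and outer membrane genes (labelled mitochondrial dynamics) has 7 of 11 genes lower.

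The libraries carried the markers of lung adenocarcinoma epithelium. EPCAM averaged 9852 in DMSO and 9485 with erlotinib in signal, and KRT7, the most abundant of 8 markers, went from 123686 to 79897. Of the 8, NKX2-1 (log2 fold change 1.53) and NAPSA (1.92) rose, KRT18 (-1.25), KRT8 (-0.83), KRT7 (-0.63) and KRT19 (-0.39) fell, and EPCAM (-0.05) and CDH1 (0.14) passed the limma threshold in neither direction. Their summed signal was 258517 to 290718 per DMSO library and 198679 to 204110 per erlotinib library. Since MARCH1 is best known from leukocytes, leukocyte markers were examined as well. The summed signal of 6 such markers was 20.4 to 43.9 per DMSO library and 16.8 to 49.8 per erlotinib library, PTPRC and CD3E had at most 6 and 4 reads in any library, and MS4A1 was listed at 0. CD79A was the most abundant in DMSO, at 17.8 against 8.39 with erlotinib, and CD14 with erlotinib, at a mean of 11.8 and at most 26 reads. Of 4 fibroblast markers, COL1A1 rose from 77.7 ± 15.3 to 216 ± 27.9 (SD, n = 3 each), while COL1A2 and DCN had at most 2 and 3 reads. The 3 endothelial markers summed to 12.8 to 30.6 per library. The part of other cell types in the change of MARCH1 was not tested beyond these values.

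The remaining family members were nearly without reads. MARCH11 had 0 reads in every library, which allows up to 3 reads per library, or a signal of at most 3.40. MARCH10 had 0 reads in the DMSO libraries and 3, 0 and 4 in the erlotinib libraries, so no fold is given for it. Such limits reflect counting error alone, because several reads can come from 1 molecule.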

How the data were processed

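Per the labels and the study's methods, mRNA was enriched with oligo(dT), paired-end reads were mapped to GRCh38 with Bowtie2 2.3.4, and uniquely mapped reads were counted with featureCounts 1.6.3. The submitters' notes also name DESeq2 1.18.1. The deposited signal values are described as raw counts, but are whole multiples of 1 step per library (100% within a tolerance of 0.01), that is reads divided by a size factor, and the reads were recovered from them. Symbols of 27 rows had become dates, so members were matched by Entrez identifier. The design had assumed this unit, and limma 3.58.1 in R 4.3.3, with a trend of variance on mean, was applied to log2(signal + 1) for genes whose mean signal reached 10. All 6 libraries and all columns were used. Members, gene lists and tests were chosen with earlier results of these data known. Named were all members, the rows that share their dates, from each list the 2 lowest and 2 highest called genes, and the 3 genes most correlated with the member that rose most and the one that fell most. UBE2J2, CD86, MCL1, PMAIP1, MUL1, MFN2, OPA1 and genes named for copies, markers or reads were chosen after their values were seen. Some genes of the lists are not reported here.

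Alternatives were DESeq2 1.42.0 and edgeR 4.0.16 on the recovered reads, TMM factors, total-count scaling, no filter, at least 10 reads in every library, pseudocounts of 0.1 and 10, a threshold of 0.01, each library left out in turn, rows matched by symbol, and, chosen after seeing the data, a correction for transcript length and GC content (96.4% of tested genes had both). Positions came from RefSeq (GRCh38.p14) and exon lengths from GENCODE 44. Copies on 261 alternate contigs were searched with minimap2 2.31-r1302 (at least 90% of the longest transcript at 97% identity). In counts simulated for this comparison over 14105 genes, limma recovered 88 of 97 changes of 1 log2 unit and 94 of 96 of 2 log2 units, and 4.21% of its calls were false. Only 200 genes were given a change there, evenly up and down, and limma used the size factors of the simulation. In the data 70.7% of tested genes were called, so the recovery and the false share need not hold for them.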

Additional observations from a re-analysis of the deposited data

How the results depend on the processing

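No paired analysis was possible because the erlotinib columns carry numbers that match none of the sample numbers in the labels. Over 17 alternatives, 2 to 3 members were lower and 4 to 6 higher, and leaving out each library in turn gave 2 lower and 5 to 6 higher. MARCH2, MARCH3, MARCH4, MARCH6, MARCH7 and MARCH9 kept their direction and call under all 17, with log2 fold changes of 0.99 to 1.44, 1.71 to 2.06, -3.78 to -3.14, 0.29 to 0.52, -0.55 to -0.31 and 0.70 to 1.24. The 0.99 of MARCH2 came from rows matched by symbol, a sum that includes MARC2, and its lowest value otherwise was 1.04. MARCH1 lost its call at a threshold of 0.01 and turned to -1.42 where rows were matched by symbol, since that sum includes MARC1. MARCH5 kept its direction (0.14 to 0.35) and gained a call under 6 alternatives. MARCH8 was never called, and lay between -0.14 and 0.24 with each library left out in turn and at -0.13 with the correction for GC content and length. Scaling to the total count, leaving out the filter and the GC and length correction moved the median log2 fold change of all genes by 0.18, 0.11 and -0.11. Of the lists, 5 surface substrates were lower and 8 higher, and 6 genes of ER-associated degradation lower and 8 higher, with scaling to the total count, and 4 of the latter list were higher with the GC and length correction. Signal per kilobase depends on the length chosen: with the longest transcript MARCH1 was at 10.0 in DMSO and 16.2 with erlotinib, and MARCH9 at 306 and 630.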

Other observations

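The symbols of the MARCH genes appear in the table as dates, and so do those of MARC1 and MARC2, mitochondrial enzymes that reduce amidoximes and are not ubiquitin ligases (now MTARC1 and MTARC2). Of 13 rows with such a date in March, 2 dates occur on more than 1 row. MARC1 had a signal of 896, 1042 and 1002 in DMSO and 276, 288 and 300.5 with erlotinib, a log2 fold change of -1.76 ± 0.10 (SE; limma, adjusted p = 3.7e-12), and no library of one condition overlapped the other. MARC2 had a log2 fold change of 0.26 (adjusted p = 0.206, limma), and its libraries overlapped. MARCH1 made up only 5.91% of the summed signal of the rows dated 1-Mar in DMSO and 25.7% with erlotinib. A table keyed by symbol would therefore show 1-Mar lower with erlotinib, at 1042 ± 79.9 against 388 ± 3.62 (SD, n = 3 each), although MARCH1 itself was higher in all 3 erlotinib libraries. For 2-Mar, of which MARCH2 made up 68.0% and 80.9%, the sum rose by 0.99 on the log2 scale, against 1.26 for MARCH2 alone.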
